A study of Mus musculus with 33 samples.

Results

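Dlx1, Dlx2, Dlx3, Dlx4, Dlx6, Msx1 and Msx2 are homeobox genes, taken here by name from a mouse RNA sequencing table of 17982 genes. All 7 were in the table, and their close relative Dlx5 was set aside except as the neighbour of Dlx6. Counts were given for 3 groups of 3 libraries. Induced osteoblasts (iOB) were fibroblasts transduced with lentivirus carrying transcription factor genes, which the labels do not name, and then grown in osteogenic medium. Calvarial osteoblasts (calvarial-OB) were skull-vault progenitor cells under osteoblast differentiation, and their sample titles carry the words dataset 2, so that a dataset effect and the cell source cannot be told apart. Fibroblasts were tail-tip cells of Col2.3GFP mice, expanded over passages and frozen, and were the cells from which iOB were made. In Col2.3GFP mice a fragment of a type I collagen promoter drives green fluorescent protein (GFP) in osteoblast-lineage cells. Cells sorted for GFP from the induced cultures (iOB GFP+) were represented by the authors' result table alone, without values per library. The labels give neither the animals' age nor the day of harvest, and no group had virus or osteogenic medium alone. They do not say whether the libraries of a group came from separate cultures or animals, so p-values measure the spread between libraries, which may be technical.

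Dlx and Msx proteins bind DNA through a homeodomain and act on overlapping sites, Dlx proteins mostly as activators and Msx proteins mostly as repressors. The Dlx genes lie in linked pairs, Dlx1 with Dlx2, Dlx3 with Dlx4, and Dlx5 with Dlx6, and the members of a pair often share enhancers. In the head they pattern the jaws and the neural crest mesenchyme, and in bone cells they take part in the response to bone morphogenetic proteins (BMPs), which induce several of them.

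The libraries held 5646299 to 8187715 counts in iOB, 8219411 to 15023771 in calvarial-OB and 7634593 to 13367273 in fibroblasts. Within a group, libraries correlated across genes at 0.967 to 0.991 on the log2 scale of CPM (counts scaled to library size). All 9 listed osteoblast markers were called higher in iOB and in calvarial-OB than in fibroblasts, where a call is an edgeR adjusted p below 0.05. Osteopontin (Spp1), a bone gene not on this list, was called lower in both. The labels name no delivered factor, so whether iOB counts of the listed regulators Runx2 and Sp7 include vector transcripts was not tested. Of 8 fibroblast markers, 7 were lower in iOB and 6 were lower in calvarial-OB. Among all tested genes, 22.7% were called higher and 20.6% lower in iOB, and 28.4% and 27.4% in calvarial-OB. The marker Dcn was called higher in both, with log2 fold changes of 0.59 in iOB and 1.02 in calvarial-OB (edgeR adjusted p = 0.020 and 5.3e-04). Totals over the 9 libraries ran from 18 counts for Dlx4 to 784 for Msx2.

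The stretch just upstream of the gene was available for 4 of the 7, from RefSeq on build GRCm38.p6, and is shown because these 4 divide into genes called higher in calvarial-OB than in fibroblasts (Dlx1, Msx1) and genes that were not (Dlx2, Msx2). Each line gives the 250 bases before the annotated start, 5′ to 3′ on the gene's strand. Capitals mark matches, on either strand, to TAATTA (a core bound by homeodomains), to TAATTG (another such core), to GGCGCC (bound by BMP Smads), to TGTGGT (the Runx core) or to TATAAA (the TATA box).
Dlx1, chr2:71529195-71529444, plus strand: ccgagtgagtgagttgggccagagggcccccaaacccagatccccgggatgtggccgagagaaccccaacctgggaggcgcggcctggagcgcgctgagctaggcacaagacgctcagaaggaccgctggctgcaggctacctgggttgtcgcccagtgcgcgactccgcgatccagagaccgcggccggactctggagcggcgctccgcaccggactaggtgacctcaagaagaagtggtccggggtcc
Msx1, chr5:37824586-37824835, minus strand: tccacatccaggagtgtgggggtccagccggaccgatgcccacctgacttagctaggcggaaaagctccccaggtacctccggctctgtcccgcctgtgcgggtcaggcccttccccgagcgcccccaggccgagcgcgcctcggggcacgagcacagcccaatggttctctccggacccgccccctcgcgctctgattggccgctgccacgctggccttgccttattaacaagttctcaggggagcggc
Dlx2, chr2:71546755-71547004, minus strand: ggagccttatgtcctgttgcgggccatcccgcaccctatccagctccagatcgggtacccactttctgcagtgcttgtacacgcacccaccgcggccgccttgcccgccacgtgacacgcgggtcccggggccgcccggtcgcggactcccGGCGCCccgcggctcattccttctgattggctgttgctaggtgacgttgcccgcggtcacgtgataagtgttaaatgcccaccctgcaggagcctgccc
Msx2, chr13:53472781-53473030, minus strand: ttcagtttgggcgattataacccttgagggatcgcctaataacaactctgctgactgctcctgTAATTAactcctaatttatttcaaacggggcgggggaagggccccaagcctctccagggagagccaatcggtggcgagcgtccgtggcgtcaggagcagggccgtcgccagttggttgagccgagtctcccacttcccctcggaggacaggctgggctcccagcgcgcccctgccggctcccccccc

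Among these letters there were 2 matches. Msx2 held TAATTA, starting 187 bases before its start, a motif found in 4.84% of 32851 promoter windows of this length. Dlx2 held GGCGCC, starting 99 bases before its start, found in 9.59% of windows. The windows of Dlx1 and Msx1 held none of the 5 motifs. Of the motifs not found here, TAATTG was in 7.17% of all windows, TGTGGT in 14.0% and TATAAA in 12.4%. The 2 matches lie in different windows and overlap no other match. The 4 windows held 22 CpG dinucleotides in Dlx1, 20 in Msx1, 24 in Dlx2 and 16 in Msx2, against a median of 6 over all windows, whose quartiles were 2 and 16.

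Dlx3 was the member with the clearest change. Dlx3 regulates epidermis, hair, teeth and bone, and is expressed in osteoblasts. Its level was 7.71, 4.59 and 4.42 CPM in the 3 iOB libraries, 11.5, 20.5 and 11.98 CPM in the calvarial-OB libraries, and 0.283, 0.283 and 0.581 CPM in the fibroblast libraries. The 3 groups did not overlap, with calvarial-OB highest and fibroblasts lowest. Against fibroblasts, Dlx3 was 13.4-fold higher in iOB (log2 fold change 3.75 ± 0.45, SE; edgeR adjusted p = 3.6e-05) and 35.2-fold higher in calvarial-OB (5.14 ± 0.41; edgeR adjusted p = 8.1e-07). iOB in turn stood below calvarial-OB, at -1.39 ± 0.29 on the log2 scale (edgeR adjusted p = 0.0021). Each of these calls held under every alternative tried. Because Dlx3 also marks epidermis, keratinocyte markers were set beside it. The summed level of the 8 measured of 10 such markers was 7.68 to 9.98 CPM in iOB, 5.93 to 7.35 CPM in calvarial-OB and 6.51 to 8.86 CPM in fibroblasts, so the ranges of iOB and fibroblasts overlapped. The basal keratin gene Krt5 had no counts in iOB or calvarial-OB and 2 in fibroblasts. Of this list, 3 genes were tested. The cadherin gene Cdh1, which many epithelia express, was called higher in iOB and in calvarial-OB, with 44 counts in iOB, 24 in calvarial-OB and 0 in fibroblasts. The epidermal regulator Trp63 averaged 4.16 CPM in iOB, 2.08 CPM in calvarial-OB and 5.49 CPM in fibroblasts, and was called lower in calvarial-OB than in fibroblasts (log2 fold change -1.39; edgeR adjusted p = 8.4e-04) but not called in iOB (-0.39; 0.24). The keratin gene Krt10 was not called in any comparison. Their part in the Dlx3 result was not tested.

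**Figure D1:**
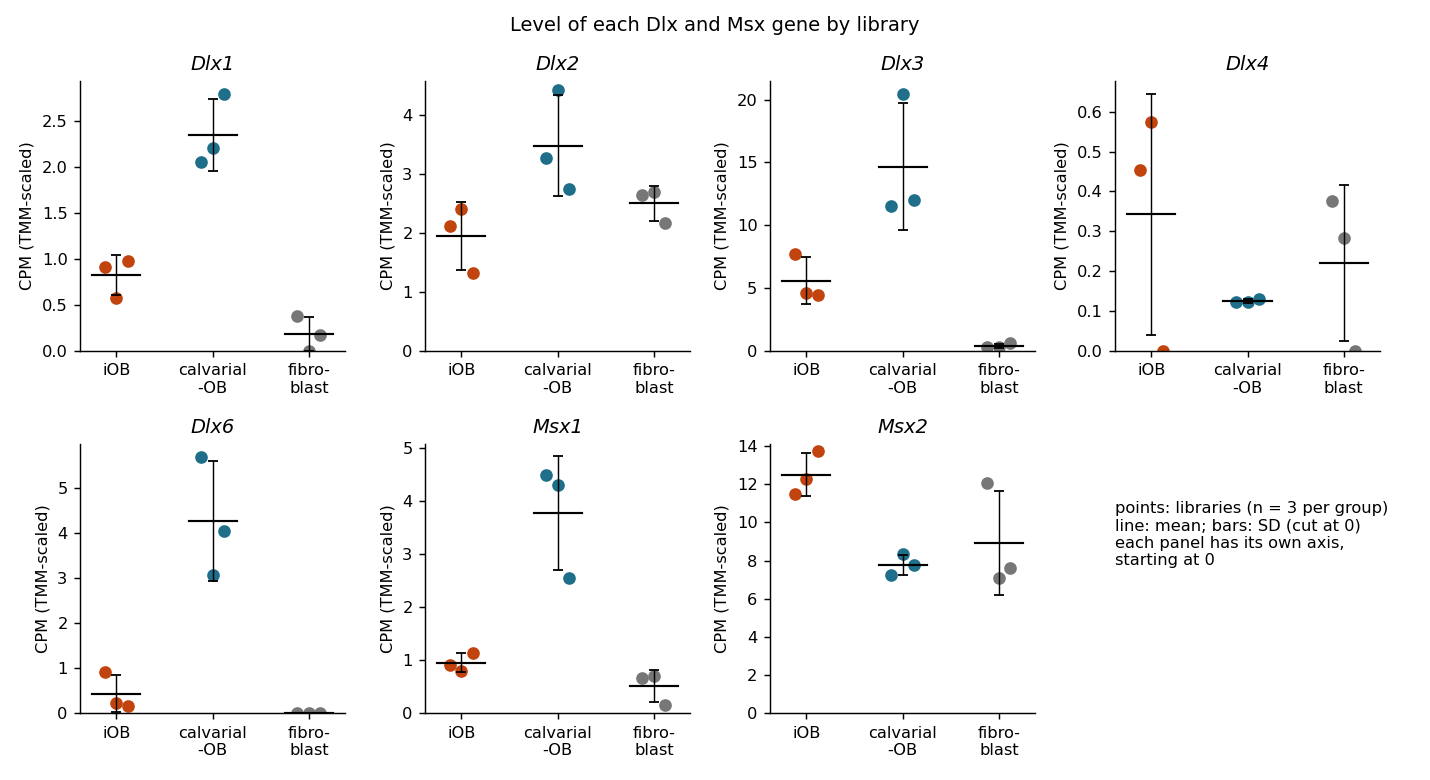
Level of each gene (CPM on TMM-scaled library sizes) in each library of iOB, calvarial-OB and fibroblasts, with mean and SD (n = 3 per group). Dlx1, Dlx3, Dlx6 and Msx1 separate all 3 groups with calvarial-OB highest, Dlx2 is also highest there, and the highest Msx2 library is an iOB library. The gap between iOB and fibroblasts is small for Dlx6 and Msx1.

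Dlx6, partner of Dlx5 in setting lower jaw identity, was found mainly in calvarial-OB. Its counts were 6, 2 and 1 in iOB and 47, 25 and 62 in calvarial-OB, while each fibroblast library had 0. A count of 0 allows up to 0.425 CPM in the shallowest fibroblast library (3 counts, counting error only). The groups did not overlap, but the lowest iOB libraries lay within that limit. Taking 3 counts over the whole fibroblast group as the floor, Dlx6 was at least 41.8-fold higher in calvarial-OB than in fibroblasts (edgeR adjusted p = 2.8e-05). That bound was 26.9-fold without fibroblast replicate 1 and 24.8-fold without fibroblast replicate 3. In iOB the same bound was at least 4.16-fold higher than in fibroblasts (edgeR adjusted p = 0.016), or 2.67-fold and 2.47-fold without fibroblast replicates 1 and 3. The iOB call rested on iOB replicate 1, without which the edgeR adjusted p was 0.059. Between the osteoblast cultures, iOB were 9.79-fold lower than calvarial-OB (log2 fold change -3.29 ± 0.53; edgeR adjusted p = 6.3e-04; -4.31 without iOB replicate 1). Dlx6 passed the low-count filter through calvarial-OB, the only group with all 3 libraries at 1.22 CPM or more. Its calls are thus a description.

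The neighbour Dlx5 had 1220, 1830 and 1376 counts in iOB, 125, 135 and 208 in calvarial-OB and 11, 8 and 8 in fibroblasts. For every 1000 Dlx5 counts there were 4.92, 1.09 and 0.727 Dlx6 counts in the iOB libraries and 376, 185 and 298 in the calvarial-OB libraries. The groups did not overlap in this ratio (exact permutation test, two-sided, p = 0.1, the smallest that 3 against 3 libraries allow). The 27 Dlx5 counts of fibroblasts are too few for such a ratio. Since the labels name no delivered factor, whether Dlx5 counts include transcripts of a vector was not tested. The long non-coding transcript Dlx6os1, which overlaps Dlx6, had 7, 7 and 7 counts in iOB, 14, 7 and 29 in calvarial-OB and 0, 1 and 1 in fibroblasts. Against the 2 fibroblast counts its ratio was 14.6 in iOB (95% Clopper-Pearson interval 3.56 to 128) and 23.4 in calvarial-OB (6.14 to 198), and both were called (edgeR adjusted p = 0.0017 and 1.6e-04). Dlx6os1 was not called between iOB and calvarial-OB (log2 fold change -0.62 ± 0.43; edgeR adjusted p = 0.25). The strand setting of the counting is not stated, so reads of overlapping sense and antisense genes cannot be told apart. A further antisense transcript, Dlx6as2, had 1 count in iOB, 1 in calvarial-OB and 0 in fibroblasts.

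**Figure D2:**
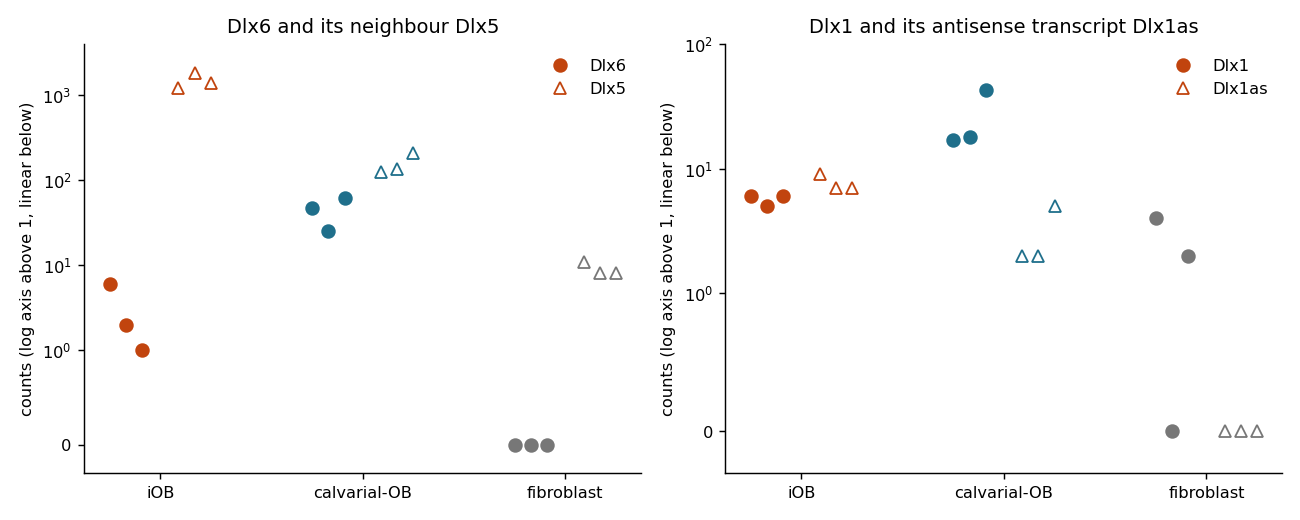
Counts per library on an axis that is logarithmic above 1 and linear below, for Dlx6 with Dlx5 and for Dlx1 with Dlx1as, in iOB, calvarial-OB and fibroblasts. In iOB, Dlx5 lies at 1220 counts or more while Dlx6 lies at 6 or fewer, and Dlx1as exceeds Dlx1 in each iOB library but in no calvarial-OB library.

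Dlx1, known from forebrain interneurons and the first branchial arch, followed the same order of groups. It stood at 0.907, 0.573 and 0.982 CPM in iOB, at 2.06, 2.21 and 2.80 CPM in calvarial-OB and at 0.377, 0 and 0.166 CPM in fibroblasts. No groups overlapped. Dlx1 was 11.3-fold higher in calvarial-OB than in fibroblasts (log2 fold change 3.49 ± 0.51; edgeR adjusted p = 1.2e-04). It was 3.81-fold higher in iOB than in fibroblasts (1.93 ± 0.64; edgeR adjusted p = 0.028), on 17 counts against 6. This second call was lost without iOB replicate 1 (edgeR adjusted p = 0.077), iOB replicate 3 (0.084), fibroblast replicate 2 (0.057) or fibroblast replicate 3 (0.087). Without fibroblast replicate 1, which held 4 of the 6 counts, the log2 fold changes were 4.36 for calvarial-OB and 2.79 for iOB. Against calvarial-OB, Dlx1 was lower in iOB by 2.96-fold (log2 fold change -1.56 ± 0.43; edgeR adjusted p = 0.010; 0.060 without iOB replicate 2). Dlx1 also passed the low-count filter through calvarial-OB, the only group with all 3 libraries at 1.22 CPM or more. Its calls are thus a description.

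Dlx1as, an antisense transcript of the Dlx1 locus, ran in another order. It had 9, 7 and 7 counts in iOB, 2, 2 and 5 in calvarial-OB and 0 in every fibroblast library. Dlx1as was thus highest in iOB, with no overlap, and it amounted to 135 counts per 100 Dlx1 counts in iOB and 11.5 per 100 in calvarial-OB (exact permutation test over libraries, two-sided, p = 0.1, the smallest possible). These ratios rest on 23 Dlx1as and 17 Dlx1 counts in iOB, and on 9 and 78 in calvarial-OB. As the strand setting is not stated, sense and antisense reads cannot be told apart where the 2 genes overlap. Dlx1as did not pass the low-count filter. Without that filter its log2 fold change between iOB and calvarial-OB was 1.93 (edgeR adjusted p = 0.018), and it was at least 10.6-fold higher in iOB than in fibroblasts (edgeR adjusted p = 3.0e-04), taking 3 counts over the fibroblast group as the floor. That bound was 6.83-fold without fibroblast replicate 1 and 6.32-fold without fibroblast replicate 3.

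Dlx2, the partner of Dlx1 in the same tissues, was present in all groups. It stood at 2.12, 2.41 and 1.31 CPM in iOB, at 3.27, 4.41 and 2.73 CPM in calvarial-OB and at 2.64, 2.69 and 2.16 CPM in fibroblasts. The iOB and fibroblast libraries overlapped, and every calvarial-OB library lay above those of both other groups. Dlx2 was not called in iOB against fibroblasts (log2 fold change -0.32 ± 0.32; edgeR adjusted p = 0.44) nor in calvarial-OB against fibroblasts (0.46 ± 0.29; 0.19). Between iOB and calvarial-OB it narrowly missed the threshold (-0.78 ± 0.31; edgeR adjusted p = 0.052). It passed with upper-quartile scaling (edgeR adjusted p = 0.035), with the replicate number as a block (0.033) and without calvarial-OB replicate 3 (0.034), with adjusted p-values from 0.033 to 0.18 across the alternatives. Forebrain interneuron markers were set beside Dlx1 and Dlx2. Of 10 listed, 6 were measured, and neither Gad1 nor Gad2 was among them. Their summed level was 17.9 to 21.8 CPM in iOB, 46.2 to 53.6 CPM in calvarial-OB and 10.5 to 19.0 CPM in fibroblasts. In calvarial-OB that sum included Lhx8, a homeobox gene also known from jaw and palate mesenchyme, with 530 counts against 10 in fibroblasts, and the neuronal growth gene Stmn2, with 681 counts against 196. Stmn2 was also called higher in iOB than in fibroblasts (log2 fold change 1.15; edgeR adjusted p = 0.0015), and Lhx8 was not. The other tested markers, Lhx6 and Tubb3, were not called against fibroblasts in either culture. The part of these markers in the Dlx1 result was not tested.

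Dlx4, the linked partner of Dlx3, was close to the limit of detection. It had 3, 5 and 0 counts in iOB, 1, 1 and 2 in calvarial-OB and 4, 2 and 0 in fibroblasts. The groups overlapped, and no difference was detectable at this depth. It did not pass the filter, and without the filter its log2 fold change was 0.82 for iOB against fibroblasts, -0.65 for calvarial-OB against fibroblasts and 1.47 for iOB against calvarial-OB (edgeR adjusted p = 0.56, 0.66 and 0.29).

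Msx1, a repressor active in dental and craniofacial mesenchyme, was high in calvarial-OB. Its level was 0.907, 0.803 and 1.15 CPM in iOB, 4.48, 4.29 and 2.54 CPM in calvarial-OB and 0.659, 0.708 and 0.166 CPM in fibroblasts. The calvarial-OB libraries lay well above the others, and the iOB libraries lay just above the fibroblast libraries. Against fibroblasts Msx1 was 7.52-fold higher in calvarial-OB (log2 fold change 2.91 ± 0.44; edgeR adjusted p = 1.6e-04), a call that held under every alternative tried. Msx1 passed the low-count filter through calvarial-OB, the only group with all 3 libraries at 1.22 CPM or more, so its calls with calvarial-OB are a description. In iOB the log2 fold change was 0.95 ± 0.55 and was not called (edgeR adjusted p = 0.19). Against calvarial-OB, Msx1 was lower in iOB by 3.89-fold (log2 fold change -1.96 ± 0.42; edgeR adjusted p = 0.0024). Its antisense transcript Msx1os had 2, 3 and 0 counts in iOB, 9, 11 and 14 in calvarial-OB and 3, 0 and 1 in fibroblasts. Msx1os was thus also highest in calvarial-OB.

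Msx2, which governs growth of the skull vault and its sutures, behaved differently from the other members. It stood at 11.5, 12.3 and 13.7 CPM in iOB, at 7.27, 8.34 and 7.75 CPM in calvarial-OB and at 12.1, 7.08 and 7.63 CPM in fibroblasts. All iOB libraries lay above all calvarial-OB libraries, and fibroblast replicate 1 lay within the iOB range. Msx2 was higher in iOB than in calvarial-OB by 1.60-fold (log2 fold change 0.68 ± 0.21; edgeR adjusted p = 0.018; 0.064 without iOB replicate 3). Against fibroblasts it was not called in iOB (0.47 ± 0.21; edgeR adjusted p = 0.084) or in calvarial-OB (-0.21 ± 0.21; 0.42). Fibroblast replicate 1 decided the iOB value: without it the log2 fold change was 0.75 and was called (edgeR adjusted p = 0.0089), with adjusted p-values from 0.0089 to 0.22 across the alternatives. Without the same library the calvarial-OB log2 fold change was 0.07. The ribosomal RNA gene Rn45s held 2.27% of counts in fibroblast replicate 1, against 8.39% and 10.9% in replicates 2 and 3. With Rn45s left out of the fit, the log2 fold change of Msx2 in iOB against fibroblasts was 0.47 (edgeR adjusted p = 0.084). That fit left the scaling almost unchanged, with a median over all genes of -0.036 either way. Whether the Rn45s share bears on Msx2 was therefore not tested. The remaining family member Msx3, not among the 7 genes, had 4 counts in iOB, 0 in calvarial-OB and 2 in fibroblasts.

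Counted together, 6 of the 7 genes were tested and Dlx4 was not. In iOB against fibroblasts, 3 were called higher (Dlx1, Dlx3, Dlx6), none lower and 3 not called, where 22.7% of all 13438 tested genes were called higher, 20.6% lower and 43.3% in either direction. Without iOB replicate 1 the count was 1, Dlx3. In calvarial-OB against fibroblasts, 4 were called higher (Dlx1, Dlx3, Dlx6, Msx1) and 2 not called, with 28.4% of all genes called higher, 27.4% lower and 55.8% in either direction. In iOB against calvarial-OB, 4 were called lower (the same 4 genes) and Msx2 higher, where 24.1% of all genes were called lower, 24.7% higher and 48.8% in either direction. Libraries of iOB and fibroblasts did not overlap, with iOB higher, for 4 tested members and 30.2% of genes, and no member but 32.8% of genes had all iOB libraries lower. Calvarial-OB libraries all lay above fibroblast libraries for 5 tested members and 30.2% of genes, and below them for no member and 30.3% of genes. iOB libraries all lay below calvarial-OB libraries for 5 members and 27.3% of genes, and above them for Msx2 and 28.1% of genes. Dlx1, Dlx6 and Msx1 passed the filter through calvarial-OB, the only group in which all 3 libraries reached 1.22 CPM. They were thus tested because of the group in which they are high, and these counts are a description. The comparisons with fibroblasts share the same 3 libraries and are not independent of each other.

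**Figure D3:**
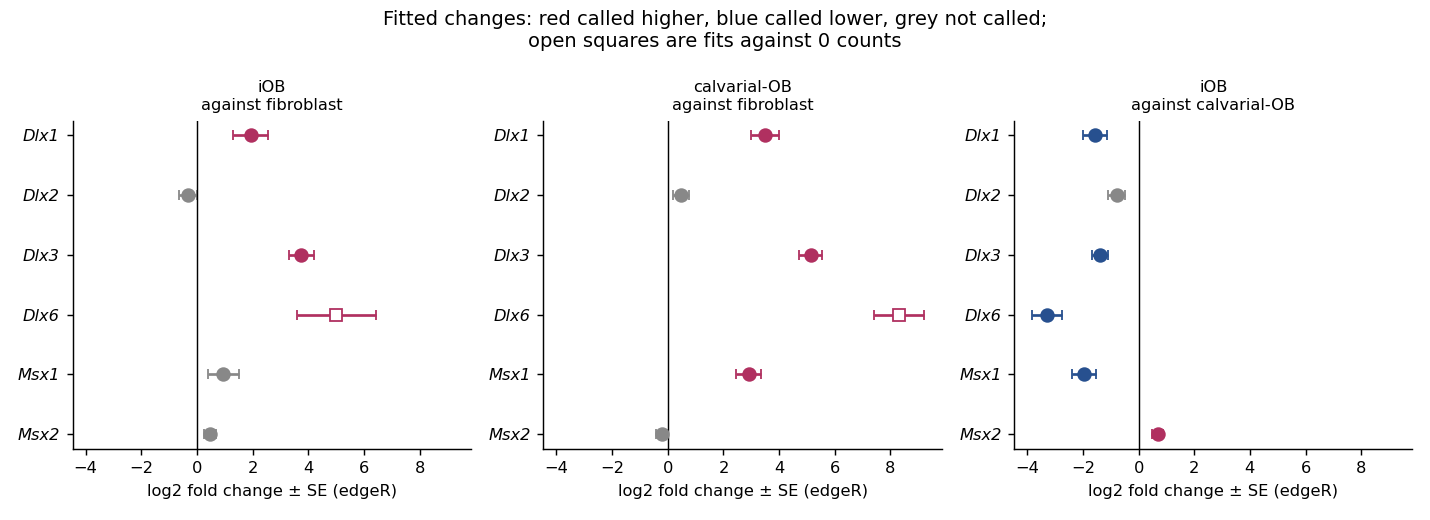
Log2 fold changes with SE from edgeR for the 6 tested genes in the 3 comparisons, coloured by call (adjusted p below 0.05). Dlx1, Dlx3, Dlx6 and Msx1 lie right of 0 in calvarial-OB against fibroblasts and left of 0 in iOB against calvarial-OB, and the open squares of Dlx6 are fits against 0 counts that depend on the prior count.

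In the authors' deposited table for sorted iOB GFP+ cells against fibroblasts, 2 of the 7 genes were higher at an adjusted p below 0.05, Dlx3 and Dlx6, none was lower and 5 were not called, where 23.7% of genes with an adjusted p were higher, 21.7% lower and 45.5% either. Dlx3 had an authors' log2 fold change of 6.82 ± 0.48 (SE; authors' adjusted p = 1.9e-43), above those of 99.7% of genes in that deposited table. In the authors' deposited table for unsorted iOB its log2 fold change was 3.36 ± 0.44 (authors' adjusted p = 3.8e-13). For Dlx6 the authors' deposited tables gave 4.68 ± 0.84 in iOB GFP+ (authors' adjusted p = 1.6e-07) and 2.06 ± 0.72 in iOB (authors' adjusted p = 0.014). The unsorted table called 3 of the 7, the third being Dlx1 at 1.54 ± 0.62 in the authors' deposited values (authors' adjusted p = 0.039), where 19.9% of genes were higher, 15% lower and 34.9% either. In iOB GFP+, Dlx1 had 1.47 ± 0.93 in the authors' deposited table and was not called (authors' adjusted p = 0.20). Dlx4 just missed the threshold there, with an authors' deposited log2 fold change of 1.85 ± 0.81 (authors' adjusted p = 0.0502), against 0.44 ± 0.78 in the deposited iOB table (0.72).

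Msx1, Msx2 and Dlx2 were not called in either of the authors' deposited tables. Their deposited log2 fold changes were 1.13 ± 0.67, 0.13 ± 0.29 and -0.18 ± 0.47 in iOB GFP+, and 0.81 ± 0.54, 0.49 ± 0.24 and -0.28 ± 0.39 in iOB, in the authors' tables. The antisense transcript Dlx1as was higher in both of the authors' deposited tables, by 3.55 ± 1.09 on the log2 scale in iOB GFP+ (authors' adjusted p = 0.0036) and 3.31 ± 0.74 in iOB (5.7e-05). Both of the authors' deposited tables set their cells against fibroblasts, and the difference between sorted and unsorted iOB was not tested. When the counts were refitted with DESeq2 and its prior on fold changes, the result lay a median of 3.4e-04 from the authors' deposited iOB values, which are thus moderated towards 0. Whether the iOB GFP+ values were moderated in the same way is not stated.

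**Figure D4:**
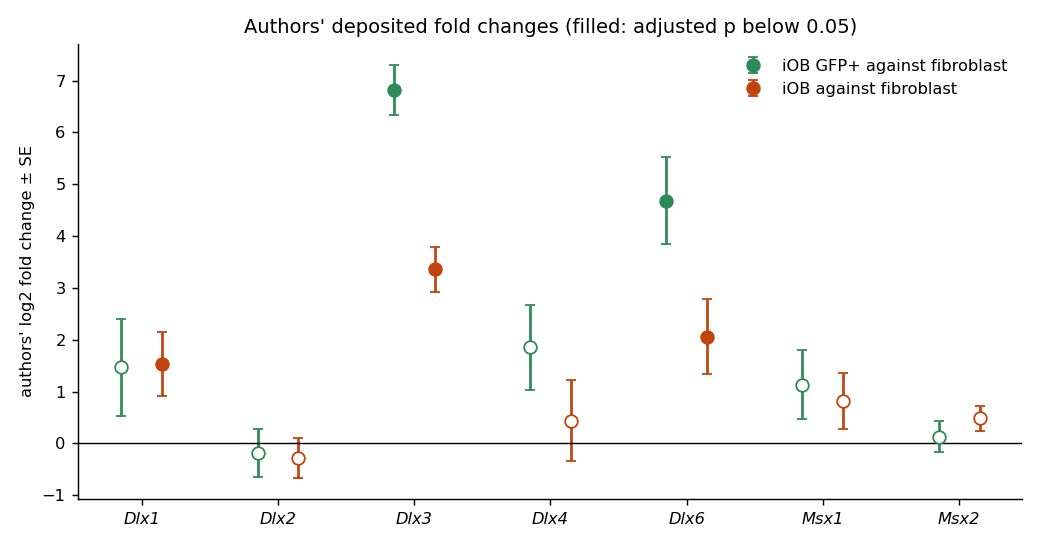
Log2 fold changes with SE as the authors deposited them, for iOB GFP+ and for iOB, each against fibroblasts, with filled points where the authors' adjusted p is below 0.05. Dlx3 lies at 6.82 in iOB GFP+ and 3.36 in iOB, Dlx6 at 4.68 and 2.06, and the other 5 genes lie within 2 of 0.

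The patterns of the 6 tested genes over the 9 libraries fell together in part. Dlx1, Dlx3, Dlx6 and Msx1 correlated with each other at Pearson r of 0.80 to 0.92 in log2 CPM. Msx2 correlated with Dlx1 at 0.00 and with Dlx2 at -0.60. These values describe 9 libraries that share 3 groups and low counts. The tested genes most like Dlx3 were Wif1, Slc8a3 and Panx3, each with r = 0.99, of which Panx3 is a channel gene of maturing osteoblasts and Wif1 a secreted Wnt inhibitor. Those most like Msx2 were Sync, Synpo2 and Agtr1a (r = 0.98, 0.97 and 0.94), and only 14 genes exceeded 0.9 with Msx2, against 820 with Dlx3. For Dlx6 they were Grap, Tmem204 and Gps2 (r = 0.99, 0.99 and 0.98), and for Dlx1 they were Tial1, Cacnb4 and Snord100 (0.99, 0.98 and 0.97). For Msx1 they were LOC100504703, Muc6 and Snrnp35 (0.99, 0.98 and 0.98), and for Dlx2 they included Bsn and Rtkn (0.93 and 0.92).

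The nearest measured gene on each side, in RefSeq gene order, was also read for the linked pairs and for Msx1 and Msx2. Of 10 such neighbours, 5 passed the filter. In iOB against fibroblasts, 1 of the 5 was called higher, the integrin gene Itga3 beside the Dlx3 and Dlx4 pair (log2 fold change 0.61; edgeR adjusted p = 0.011), and none lower. Of all tested genes, 22.7% were called higher and 20.6% lower in that comparison. In calvarial-OB against fibroblasts, Itga3 was lower (-1.98; edgeR adjusted p = 2.9e-06), opposite in sign to Dlx3, and so was the methionine aminopeptidase gene Metap1d beside Dlx1 and Dlx2 (-0.96; 5.3e-04). The proteasome subunit gene Shfm1, beside Dlx6, was higher in calvarial-OB than in fibroblasts (0.64; edgeR adjusted p = 8.1e-04). On the other side of that pair Acn9 was not called in any comparison. In calvarial-OB against fibroblasts, 1 neighbour was thus higher and 2 lower, beside 28.4% and 27.4% of all genes. In iOB against calvarial-OB, 2 were higher (Itga3, Metap1d) and 1 lower (Shfm1), beside 24.7% and 24.1% of all genes. With 5 neighbours tested, these counts are a description.

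The BMP pathway list held ligands, receptors, Smads, the Id target genes and antagonists, and all 26 genes were tested. In iOB against fibroblasts 8 were higher, 7 lower and 11 not called, beside 22.7% of all genes higher and 20.6% lower, with a median log2 fold change of 0.17, against -0.04 over all genes. The count of lower genes was 3 without fibroblast replicate 2 and 4 without iOB replicate 3. The pseudoreceptor gene Bambi (2.58 ± 0.14; edgeR adjusted p = 1.1e-07), the activin antagonist follistatin (Fst, 2.41 ± 0.15; 2.4e-07) and the ligand gene Bmp2 (5.15 ± 0.40; 1.3e-06) rose in iOB. The type I receptor gene Bmpr1b fell by 2.68 ± 0.30 in iOB on the log2 scale (edgeR adjusted p = 2.3e-05).

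In calvarial-OB against fibroblasts, 8 of the 26 were higher, 12 lower and 6 not called, beside 28.4% of all genes higher and 27.4% lower, with a median of 0.04 against 0.02 over all genes. Bambi and Fst were higher again (2.37 ± 0.14 and 1.66 ± 0.14; edgeR adjusted p = 7.1e-08 and 1.6e-06). Bmpr1b fell by 4.05 ± 0.33 (edgeR adjusted p = 9.6e-07), with a log2 fold change of -4.81 without calvarial-OB replicate 3, and the BMP antagonist gremlin (Grem1) fell by 1.31 ± 0.13 (6.0e-06). Between the osteoblast cultures, 14 BMP genes were higher in iOB, 4 lower and 8 not called, beside 24.7% of all genes higher and 24.1% lower, with a median of 0.43 against -0.03 over all genes. Grem1 (1.83 ± 0.13; edgeR adjusted p = 1.1e-06), the inhibitory Smad gene Smad7 (1.34 ± 0.18; 7.8e-05), Bmp5 (1.95 ± 0.32; 4.0e-04) and the signalling Smad gene Smad9 (0.90 ± 0.16; 6.2e-04) were higher in iOB. The 4 lower in iOB were Bmp6 and the BMP target genes Id1, Id2 and Id3, with log2 fold changes of -1.22, -1.16, -1.16 and -0.85 (-0.49 for Id2 without calvarial-OB replicate 1), named after their values were seen. The libraries of Id2 overlapped. The further Id gene Id4 was not called (0.37; edgeR adjusted p = 0.24), and the inhibitory Smad gene Smad6, like Smad7, was higher in iOB (0.49; 0.021).

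**Figure D5:**
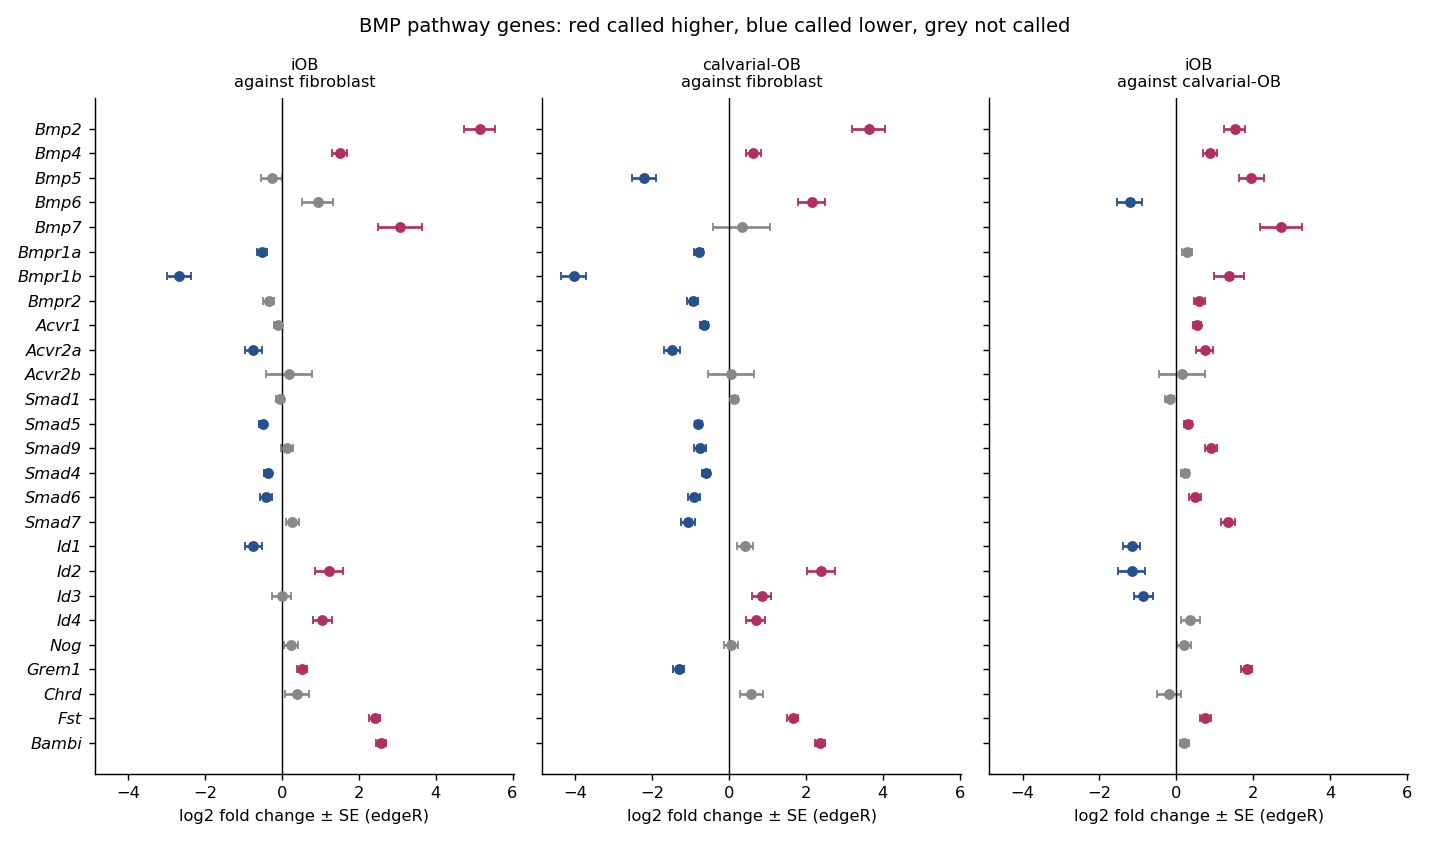
Log2 fold changes with SE from edgeR for 26 BMP pathway genes in the 3 comparisons, ordered by role and coloured by call (adjusted p below 0.05). Bmp2, Fst and Bambi lie right of 0 and Bmpr1b left of 0 in both comparisons with fibroblasts.

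Bone genes known as targets of Dlx and Msx proteins, together with osteoblast regulators, formed a list of 10. Of these, 9 were higher and 1 lower both in iOB and in calvarial-OB against fibroblasts. The lower gene in each case was osteopontin, Spp1, with log2 fold changes of -2.21 ± 0.17 in iOB and -2.22 ± 0.17 in calvarial-OB (edgeR adjusted p = 1.1e-06 and 5.7e-07). Between iOB and calvarial-OB, 3 were higher in iOB (Runx2, Sp7, Alpl), 2 lower (Ibsp, Col1a1) and 5 not called. Of all tested genes, 24.7% were called higher, 24.1% lower and 48.8% in either direction there. Against fibroblasts these shares were 22.7%, 20.6% and 43.3% in iOB and 28.4%, 27.4% and 55.8% in calvarial-OB. Whether the iOB counts of the regulators Runx2 and Sp7 include transcripts of a vector was not tested. The call of Ibsp was lost with DESeq2 (adjusted p = 0.064). The median log2 fold change of this list was 5.14 in iOB and 3.45 in calvarial-OB against fibroblasts, with all genes at -0.04 and 0.02. Markers of other cells also moved with the groups. All 9 measured macrophage markers were higher in iOB and in calvarial-OB than in fibroblasts, with summed levels of 1995 to 3235 CPM in iOB, 3084 to 5511 CPM in calvarial-OB and 31.2 to 68.3 CPM in fibroblasts, and none was at 0 counts. Adipocyte markers summed to 30.2 to 35.3 CPM in iOB, 389 to 674 CPM in calvarial-OB and 22.0 to 32.7 CPM in fibroblasts, with adiponectin (Adipoq), adipsin (Cfd) and leptin (Lep) at 0 counts in fibroblasts. Of 5 adipocyte markers tested, 4 were called higher and 1 lower in iOB against fibroblasts, and all 5 were higher in calvarial-OB. The lower gene was Fabp4, a fatty acid carrier, which averaged 10.8 CPM in iOB, 287 CPM in calvarial-OB and 24.9 CPM in fibroblasts. Their part in the Dlx and Msx results was not tested, and in such bulk libraries fewer cells of a type and less RNA per cell cannot be told apart.

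Markers of cartilage, another lineage in which Dlx genes act, did not move together. Of 5 tested, Acan and Col9a1 were called higher and Sox9, Col2a1 and Col10a1 lower in iOB against fibroblasts. The 6 measured markers summed to 70.8 to 98.7 CPM in iOB, 258 to 517 CPM in calvarial-OB and 584 to 949 CPM in fibroblasts, of which the cartilage collagen gene Col2a1 averaged 54.6, 293 and 677 CPM. The proteoglycan gene Acan averaged 16.97 CPM in iOB (SD 11.6), 4.76 CPM in calvarial-OB (SD 0.52) and 5.15 CPM in fibroblasts (SD 2.18). Endothelial and skeletal muscle markers were low throughout, with sums of at most 13.2 CPM and 9.99 CPM in any library.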

How the data were processed

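Poly-A RNA of iOB, calvarial-OB and fibroblasts (3 libraries each) was analysed from a table of counts per gene symbol that the authors deposited. The submitters' processing notes name mm9 as the build and list R 3.2.2, DESeq2, STAR 2.4.2a and Bowtie2 with no role. How reads were counted, with which annotation and strand, is not given in the sources used here. Columns named OB were matched to the calvarial-OB titles. Per the file headers, the authors' deposited tables for iOB and iOB GFP+ give for each gene its p-value, raw and adjusted, its test statistic (a score), its log2 fold change and SE, and its base mean (a normalized signal). The methylation windows are in mm9 and were not used here, since no annotation of that build was at hand. Sequences and gene order came from RefSeq GRCm38.p6 by symbol.

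The 9 libraries were fitted together with edgeR 4.0.16 (quasi-likelihood test, TMM, filterByExpr, group as the only term) in R 4.3.3, and 13438 of 17982 genes were tested. p-values were Benjamini-Hochberg adjusted over all of them, and genes below 0.05 were called. The SE is the absolute log2 fold change over the square root of the F statistic. CPM used TMM-scaled sizes, and correlations used log2 CPM with a prior count of 2. Figures were drawn with matplotlib 3.10.9 in Python 3.11.15. DESeq2 1.42.0 was an alternative, beside other scalings, no filter, 2 groups alone, a replicate block and leaving out each library. The 7 genes were named throughout. Beside them stood the 3 genes most correlated with each (1 of them is not reported here), the nearest measured neighbours, antisense partners and up to 4 called genes per list with the smallest adjusted p. The members and lists were chosen with earlier results of these data known. Floors of 3 counts and the 95% intervals cover counting error only, as reads carried no molecular identifiers.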

Additional observations from a re-analysis of the deposited data

How the results depend on the processing

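With the 2 groups alone in the fit, 1 of the 7 genes was called in iOB against fibroblasts instead of 3, while 6957 genes were called in all instead of 5820. Dlx1 and Dlx6 did not pass the low-count filter in that fit. Leaving out each library in turn gave 1 to 4 called members in iOB against fibroblasts, 4 to 4 in calvarial-OB against fibroblasts and 4 to 6 in iOB against calvarial-OB. The corresponding ranges over all genes were 4717 to 6729, 6580 to 7825 and 5435 to 7205, around 5820, 7494 and 6561. The 4 members called in calvarial-OB against fibroblasts were called under every alternative. Of these, Dlx1, Dlx6 and Msx1 had passed the low-count filter through calvarial-OB, so their calls are a description. The calls of Dlx1 and Dlx6 in iOB rest on few counts, and depth limits Dlx4 in every group. The same-numbered libraries did not deviate together (correlations of -0.15 to 0.15, and 3 of 9 libraries correlated best with their own number), so the numbers were not taken as pairs. With the replicate number as a block, 3, 4 and 6 members were called in the 3 comparisons beside 5614, 7364 and 6303 of all genes, the added call being Dlx2 in iOB against calvarial-OB. Alternatives for the BMP counts were chosen after seeing the data.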
